A study of Homo sapiens with 6 samples.

Results

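The proteasome is the cell's main protease for proteins tagged with ubiquitin. The genes of its subunits and dedicated regulators were compared between libraries labelled as a breast cancer line and as its tamoxifen-resistant subline. Members were taken as every row of the deposited count table whose symbol is PSM, a letter from A to G and a number, which gave 46 of 20503 genes, and all 46 passed the filter on low counts. The family members PSMA8 and PSMB11 were not analysed here. The groups were T47D, described in the labels as an ER-positive human breast cancer line, and T47D-TR, its tamoxifen-resistant subline. The T47D-TR medium held 1 µM 4-hydroxytamoxifen, which the liver forms from tamoxifen and which blocks the oestrogen receptor. DMEM with 10% FBS served for T47D and T47D-TR alike. The drug is given for every T47D-TR library and for no T47D library, so resistance and the presence of the drug cannot be told apart. Each group had 3 poly(A)-selected RNA-seq libraries, which the labels do not describe as separate cultures. The p-values therefore reflect library-to-library spread alone, and that spread may be technical.

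The proteasome is built from a barrel and caps. The barrel, or core particle, has outer rings of alpha subunits (PSMA genes) that gate the entrance and inner rings of beta subunits (PSMB genes), of which PSMB5, PSMB6 and PSMB7 carry the constitutive proteolytic sites. In cells exposed to interferon, PSMB8, PSMB9 and PSMB10 can replace them and form the immunoproteasome. The regulatory cap has a base, with a ring of ATPases (PSMC genes) that unfold substrates, and a lid that removes ubiquitin (most PSMD genes). Other activators (PSME genes) can take the place of the cap, PSMF1 was first described as an inhibitor, and PSMG genes encode chaperones that assemble the barrel. The transcription factor NFE2L1, also called NRF1, raises the genes of the whole particle together when proteasome activity falls short.

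The libraries held 17199315 to 19867230 counts, at which 3 counts correspond to 0.153 to 0.178 CPM. CPM is the usual depth-scaled count, here over the TMM effective library size, and it is the level given below unless another scale is named. Pearson's r of log2 CPM across 15961 tested genes, which are not independent replicates, was 0.990 to 0.994 within groups and 0.942 to 0.947 between them. The libraries went against the ER-positive part of their labels, and some other luminal markers were low as well. ESR1, the oestrogen receptor gene that defines an ER-positive line, was counted 3, 0 and 2 times in replicates 1 to 3 labelled T47D and 2, 4 and 3 times in those labelled T47D-TR. Of the 12 luminal markers 10 were in the table, and their summed level ran from 2111 to 2194 CPM for T47D and from 2583 to 2975 CPM for T47D-TR, mostly from KRT8 and KRT18. GATA3 stood at 1.23 ± 0.14 CPM and CDH1 at 2.12 ± 0.742 CPM in T47D, whereas the mesenchymal marker VIM had 770 ± 10.9 CPM (SD, n = 3). Markers of other cell types also differed in level between the groups. The 8 mesenchymal or basal-like markers summed to between 1608 and 1634 CPM for T47D and between 2354 and 2463 CPM for T47D-TR, where VIM had 1297 ± 22.4 CPM. FN1 had 5.19 ± 0.622 CPM against 55.3 ± 1.45 CPM, and the epithelial marker EPCAM had 38.6 ± 0.587 CPM against 14.7 ± 2.25 CPM. Among luminal markers GATA3 and ERBB3 also had lower means in T47D-TR, but FOXA1, KRT8, KRT18, KRT19, CDH1 and XBP1 had higher ones. KRT19 had 27.8 ± 1.23 CPM against 112 ± 3.62 CPM, and CDH1 had 5.50 ± 2.40 CPM in T47D-TR. The mesenchymal or basal-like marker CAV1 had 319 ± 3.16 CPM against 304 ± 15.7 CPM. Of 3 endothelial markers 2 were in the table, and PECAM1 had 0.669 ± 0.0287 CPM against 27.3 ± 3.81 CPM while VWF was near 0. The 5 fibroblast markers summed to between 36.4 and 39.8 CPM for T47D and between 20.3 and 24.6 CPM for T47D-TR. LUM had 13.9 ± 1.80 CPM against 0.253 ± 0.0873 CPM, and PDGFRB had 5.72 ± 0.103 CPM against 3.58 ± 0.313 CPM. COL1A1, the most abundant of them, had 18.2 ± 1.04 CPM against 17.5 ± 1.07 CPM. COL1A2 and DCN had 0 counts in T47D and 0 to 22 in the T47D-TR libraries. The part of these differences in the results on the proteasome was not tested. Whether the libraries were made from T47D cells cannot be settled from these values. The group names are therefore used as labels only.

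Transcripts of the proteasome were lower in T47D-TR across most of the particle. edgeR's quasi-likelihood test called 33 of 46 members lower, 3 higher and 10 not at all, where a call is a Benjamini-Hochberg adjusted p under 0.05 over all tested genes. Over all 15961 tested genes it called 63.0%, of which 30.5% of genes were lower and 32.5% higher. Among the 11342 genes with a mean of at least 5 CPM, a level that every member but PSMB9 reached, 34.9% were called lower. The changes were small. The members' median log2 fold change was -0.23, with quartiles at -0.42 and -0.14, against 0.0019 for all tested genes with quartiles at -0.32 and 0.42, and no member reached a 2-fold change, whereas 2256 tested genes did. In bulk RNA, fewer cells with a transcript and less of it per cell cannot be told apart.

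The share of the library held by the members was smaller in each T47D-TR library than in any T47D library. Together they took 0.648%, 0.656% and 0.666% of all counts in T47D and 0.550%, 0.536% and 0.527% in T47D-TR. With the 37 mitochondrially encoded genes left out the mean shares were 0.701% ± 0.00916 and 0.599% ± 0.0120 (SD, n = 3). On the TMM scale the summed level was 6488 ± 107 CPM in T47D and 5449 ± 100.1 CPM in T47D-TR, a ratio of 0.840. The 3 T47D-TR libraries lay entirely below the 3 T47D libraries for 34 members and above them for 3, while 9 overlapped. Over all tested genes 33.8% lay below and 34.6% above.

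**Figure D1:**
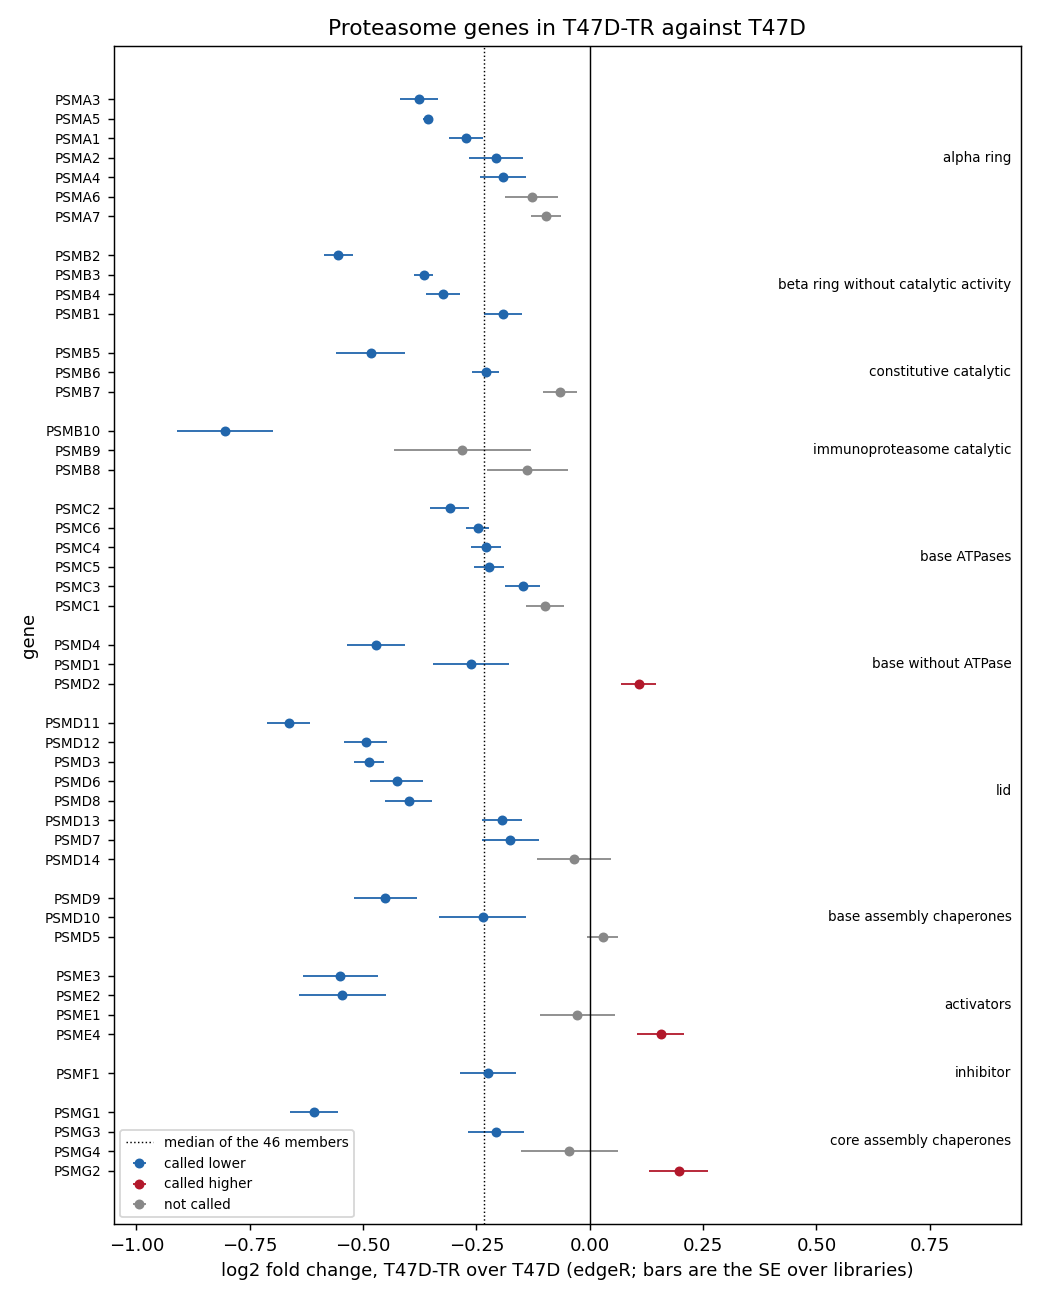
Log2 fold change of each of the 46 proteasome genes, T47D-TR over T47D, from edgeR, in blocks by subcomplex, with bars for the SE over 3 libraries per group, blue for called lower, red for called higher and grey for not called; the dotted line is the members' median of -0.23. Blue points fill most blocks, and the 3 red points, PSMD2, PSME4 and PSMG2, lie at 0.11 to 0.20.

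Most members were lower in every T47D-TR library. In each of the 3, 41 of 46 members lay under the T47D mean. The members' median distance from that mean on the log2 scale was -0.25, -0.23 and -0.29 in replicates 1, 2 and 3. Neither value was taken over all tested genes for single libraries, so they have no background here. Replicate 3, the shallowest library at 17199315 counts, was the lowest of its group for 19 members and the highest for 18. Levels were close between libraries of a group. The coefficient of variation over 3 libraries had a median of 2.67% in T47D and 4.89% in T47D-TR, and its highest value, 18.6%, belonged to PSMB9 in T47D-TR.

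**Figure D2:**
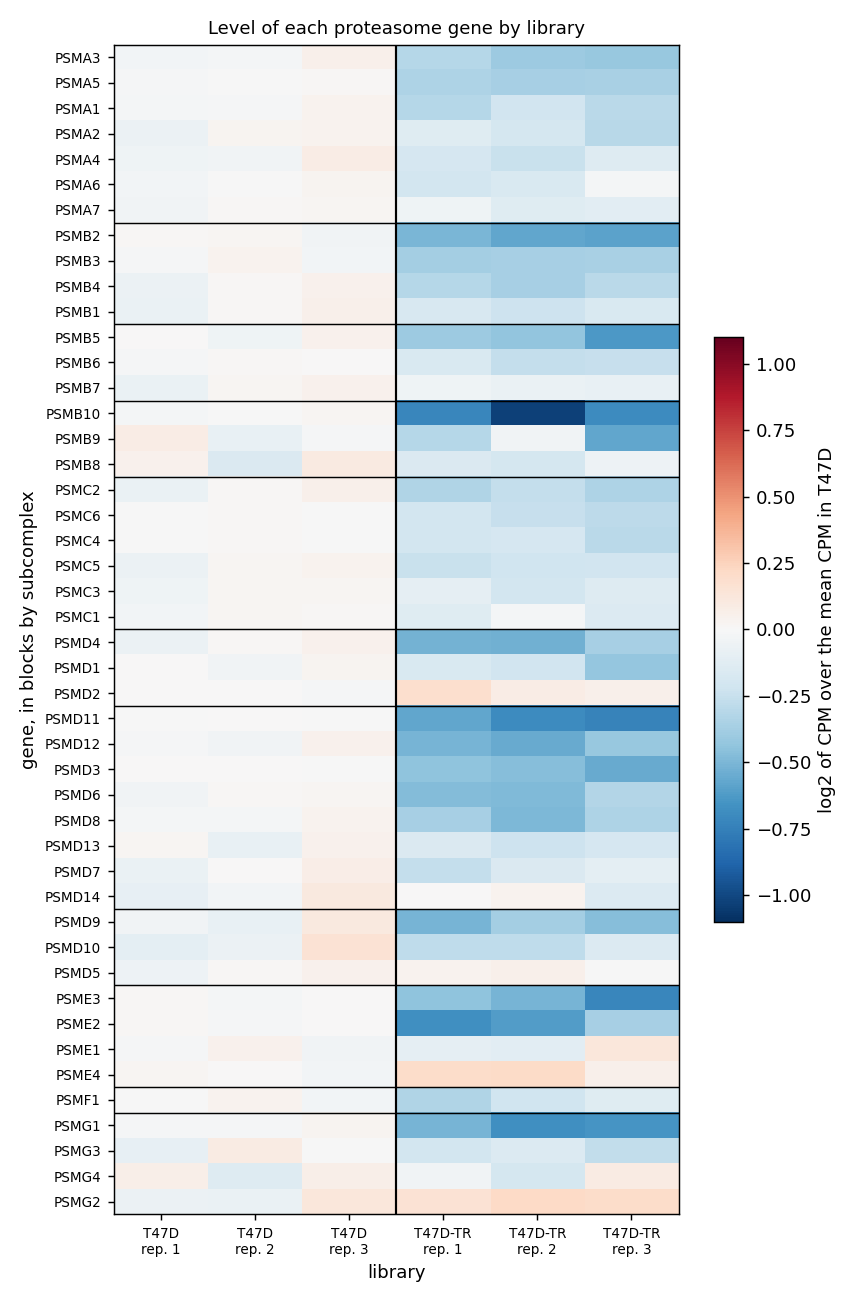
CPM of each proteasome gene in each of the 6 libraries as log2 of its ratio to the gene's mean in T47D, with genes in blocks by subcomplex and libraries in columns. The T47D-TR columns are blue in most rows, in 41 of 46 for each library, and the darkest cell is that of PSMB10 in T47D-TR replicate 2.

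The start regions of some members are shown because the NFE2L1 and NFE2L2 factors, named again below, bind the antioxidant response element, whose core letters are TGACNNNGC. RefSeq start regions (GRCh38.p14) were found for 40 of the 46 members. On either strand, these letters occurred within 250 bases upstream of the start in 11 of the 40, or 27.5%, against 11.0% of all 27305 RefSeq start regions. A match is a string of letters and not a measured site. Only 4 of the 40 windows were free of bases that any GENCODE transcript takes as exon. The windows of PSME4, PSME2 and PSMG1, each with a match, were exonic over all 250 bases. The start used for PSMA1 lies inside the span of the gene. The members with a match were 6 of the 29 that were called lower and 5 of the 11 others. The lid genes PSMD3 and PSMD12 and the beta ring gene PSMB3 fell, and the activator gene PSME1 was not called. Their upstream sequence is given 5′ to 3′ on the gene's strand, without bases that any GENCODE transcript takes as exon, and with the match in capitals.
PSMD3, plus strand, chr17:39980557-39980796: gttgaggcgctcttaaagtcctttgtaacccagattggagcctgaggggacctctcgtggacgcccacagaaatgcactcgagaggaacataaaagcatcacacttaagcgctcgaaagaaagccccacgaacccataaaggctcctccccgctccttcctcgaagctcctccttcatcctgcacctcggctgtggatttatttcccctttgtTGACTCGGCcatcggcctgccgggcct
PSMD12, minus strand, chr17:67366628-67366827: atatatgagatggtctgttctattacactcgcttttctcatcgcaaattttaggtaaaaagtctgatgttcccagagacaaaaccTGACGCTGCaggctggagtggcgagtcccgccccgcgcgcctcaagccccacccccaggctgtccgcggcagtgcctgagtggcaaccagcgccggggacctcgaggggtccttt
PSMB3, plus strand, chr17:38752491-38752735: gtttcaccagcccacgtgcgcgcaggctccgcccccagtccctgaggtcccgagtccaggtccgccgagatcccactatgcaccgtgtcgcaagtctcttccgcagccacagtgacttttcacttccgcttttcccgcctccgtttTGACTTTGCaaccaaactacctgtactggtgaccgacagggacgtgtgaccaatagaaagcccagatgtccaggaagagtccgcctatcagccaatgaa
PSME1, plus strand, chr14:24135944-24136157: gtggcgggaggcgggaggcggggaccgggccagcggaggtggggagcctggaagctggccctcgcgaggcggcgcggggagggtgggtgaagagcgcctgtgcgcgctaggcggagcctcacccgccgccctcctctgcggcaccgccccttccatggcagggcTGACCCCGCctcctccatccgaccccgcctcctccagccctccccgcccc

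Other motifs were searched in the same windows on both strands. The CCAAT box (CCAAT) was found in 17 of 40 members, 42.5% against 33.0% of all start regions, and in 15 of the 29 called lower against 2 of the 11 others. The ETS motif CCGGAAG was found in 22.5% against 8.82%, in 7 of the 29 called lower and 2 of the 11 others. The GC box GGGCGG was found in 65.0% against 42.3%, in 17 of the 29 called lower and 9 of the 11 others. The interferon-stimulated response element, in a core form of paired GAAA letters, was found in 12.5% against 3.07% and the interferon-gamma motif TTCNNNGAA in 10.0% against 6.78%. The heat shock motif GAANNTTC occurred in 0 of the 40 windows, against 5.85% of all start regions. These shares describe the windows only, and most of the members' windows held exon bases. Base composition was not matched between the members and all start regions.

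Alpha subunits form the outer rings and hold the gate of the barrel. Of 7 members 5 were called lower and 2 were not, and the ring's median change was -0.21 (log2). PSMA3 (chromosome 14, 58244843 to 58272004) had 144, 145 and 153 CPM in T47D and 118, 112 and 110 CPM in T47D-TR, the largest fall of the ring at -0.38 ± 0.04 (log2 fold change ± SE, edgeR adjusted p = 2.28e-05). PSMA5 (chromosome 1, 109399042 to 109426448) was the most even between libraries, at 111, 112 and 113 CPM against 88.4, 86.8 and 87.3 CPM. The groups do not overlap for either gene. PSMA1, PSMA2 and PSMA4 fell by 0.27, 0.21 and 0.19. PSMA6 stood at 106, 108 and 111 CPM against 94.3, 96.3 and 107 CPM, an overlap made by T47D-TR replicate 3, and was not called (log2 fold change -0.13, edgeR adjusted p = 0.0568). It was called lower without that library (log2 fold change -0.18, edgeR adjusted p = 0.000581), and also with RLE scaling (edgeR adjusted p = 0.0486), library size alone (edgeR adjusted p = 0.0164) and voom (limma adjusted p = 0.0392). PSMA7 had a log2 fold change of -0.10 and was not called (edgeR adjusted p = 0.0794), although its 3 T47D-TR libraries lay below the T47D ones. With library size alone it was called lower (log2 fold change -0.13, edgeR adjusted p = 0.0212).

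Beta subunits without a proteolytic site form the inner rings with the catalytic ones. All 4 were called lower and none of them overlapped between groups, with a median of -0.34. PSMB2 (chromosome 1, 35599541 to 35641526) went from 244, 246 and 236 CPM to 171, 162 and 161 CPM and fell by 31.9% (log2 fold change -0.55 ± 0.03, edgeR adjusted p = 3.1e-07). PSMB3 stood at 130, 130 and 131 CPM in T47D-TR, where it varied by 0.352% between libraries, against 166, 172 and 165 CPM in T47D. PSMB4 and PSMB1 fell by 0.32 and 0.19.

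Of the 3 constitutive catalytic genes 2 were called lower and 1 was not. PSMB5, which encodes the chymotrypsin-like site and the subunit that the drug bortezomib binds (chromosome 14, 23025851 to 23035220), had 127, 122 and 131 CPM in T47D and 96.1, 93.9 and 82.0 CPM in T47D-TR. It fell by 28.4% (log2 fold change -0.48 ± 0.08, edgeR adjusted p = 1.87e-05). PSMB6, the caspase-like site, went from 87.9, 89.1 and 88.6 CPM to 78.6, 73.8 and 74.1 CPM (log2 fold change -0.23 ± 0.03, edgeR adjusted p = 0.00115). PSMB7, the trypsin-like site, had 241, 258 and 261 CPM against 245, 241 and 239 CPM. Its groups overlap and it was not called (log2 fold change -0.07 ± 0.04, edgeR adjusted p = 0.211).

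Immunoproteasome genes were far scarcer in both groups. Per kilobase of exon, PSMB8, PSMB10 and PSMB9 held 11.6, 6.98 and 1.82 CPM in T47D, against 86.6, 101.5 and 258 CPM for PSMB5, PSMB6 and PSMB7. PSMB10 (chromosome 16, 67934506 to 67936850) had the largest change of all 46 members. Its counts were 156, 166 and 161 in T47D and 100, 82 and 89 in T47D-TR, or 8.40, 8.49 and 8.63 CPM against 5.18, 4.18 and 5.27 CPM. It fell by 42.7% (log2 fold change -0.80 ± 0.11, edgeR adjusted p = 0.000118). PSMB8 had 18.6, 16.2 and 19.3 CPM against 16.1, 15.8 and 17.4 CPM and was not called (log2 fold change -0.14, edgeR adjusted p = 0.198). It was called with voom and quantile normalization (log2 fold change -0.26, limma adjusted p = 0.0241). PSMB9 had 33, 31 and 31 counts against 26, 32 and 19. It was not called (log2 fold change -0.28 ± 0.15, edgeR adjusted p = 0.31). PSMB8 and PSMB9 are neighbours on chromosome 6 and overlap each other and the antisense gene PSMB8-AS1 in 139 to 618 exon bases of the full GENCODE annotation. Without a stated strand setting their reads cannot be told apart there.

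Immune cells carry immunoproteasomes as a rule, so their markers are given beside these genes. Of 10 immune markers 5 were in the table. PTPRC, which marks all leukocytes, had 2, 2 and 2 counts in T47D and 1, 0 and 1 in T47D-TR. The summed level of the 5 lay between 23.9 and 27.6 CPM for T47D and between 57.3 and 75.7 CPM for T47D-TR, mostly from CD68, a lysosomal protein gene that is not limited to macrophages. The defining immune marker was thus near 0 in both groups.

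The mix of catalytic genes was taken as the ratio of each immunoproteasome gene to the constitutive gene whose place it takes. PSMB8 amounted to 14.6%, 13.2% and 14.8% of the counts of PSMB5 in T47D and to 16.8%, 16.8% and 21.2% in T47D-TR, with no overlap. The log2 ratio was higher by 0.35 ± 0.12 (SE, n = 3; exact permutation p = 0.1, adjusted p = 0.15 over 3 ratios, 2-sided). PSMB10 amounted to 3.49%, 3.29% and 3.30% of PSMB7 in T47D and to 2.11%, 1.73% and 2.20% in T47D-TR, a difference of -0.73 ± 0.11 in the log2 ratio (exact permutation p = 0.1, adjusted p = 0.15). PSMB9 amounted to 1.89% ± 0.123 and 1.82% ± 0.357 of PSMB6 (exact permutation p = 0.8, adjusted p = 0.8), and the groups overlap. With 3 libraries against 3 the exact test cannot go below 0.1. The T47D-TR libraries thus lay above the T47D ones for the PSMB8 ratio and below them for the PSMB10 ratio.

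**Figure D3:**
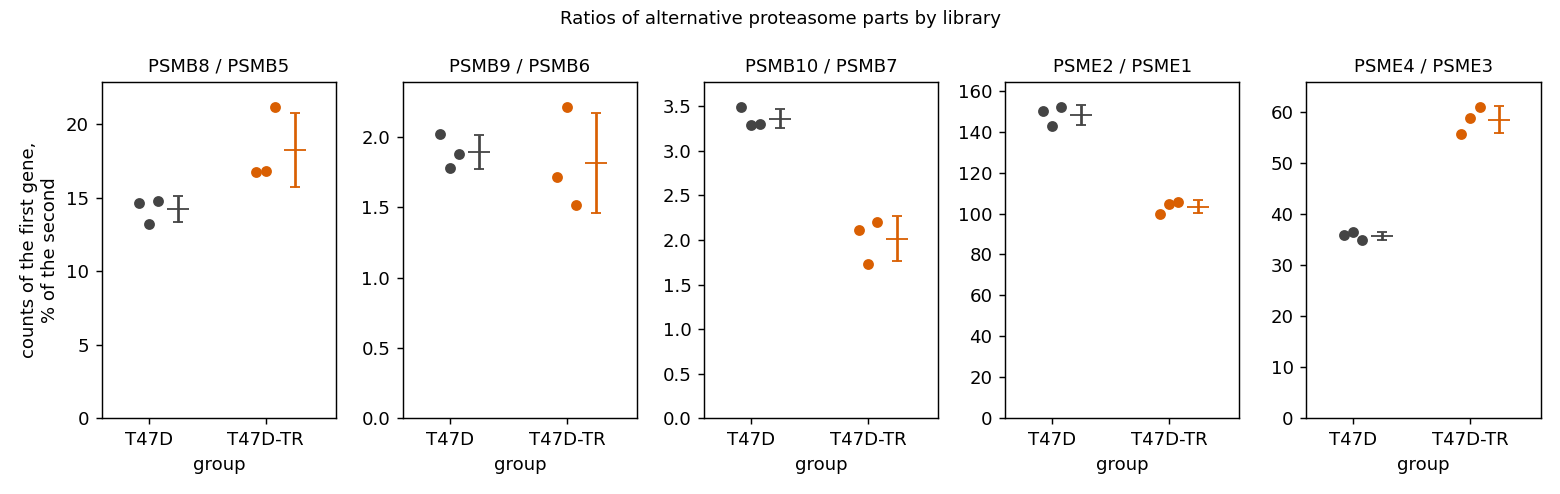
Counts of one gene as a percentage of the counts of another in each library (points), with the mean and SD of 3 libraries per group, for 3 immunoproteasome genes over their constitutive partners and for activator genes. PSMB8 over PSMB5 is higher in T47D-TR at 16.8% to 21.2%, PSMB10 over PSMB7 is lower at 1.73% to 2.20%, and PSME2 over PSME1 drops from 148% to 103% on average.

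The ATPases of the base form the ring that pulls substrates into the barrel. Of 6 members 5 were called lower and 1 was not, within a narrow range of -0.31 to -0.10. PSMC2 (chromosome 7, 103347524 to 103369395) fell the most, from 123, 130 and 134 CPM to 103, 107 and 102 CPM (log2 fold change -0.31 ± 0.04, edgeR adjusted p = 0.000137). PSMC6, PSMC4, PSMC5 and PSMC3 fell by 0.25, 0.23, 0.22 and 0.15. The opposite-strand gene FTSJ3 shares 19.5% of the annotated exon bases of PSMC5, and its own log2 fold change was -0.46, so the value of PSMC5 is uncertain. PSMC1 had 23.3, 24.0 and 23.8 CPM against 21.6, 23.4 and 21.4 CPM and was not called (edgeR adjusted p = 0.236), but it was with voom and quantile normalization (log2 fold change -0.19, limma adjusted p = 0.0285). Its value is uncertain, because its pseudogene PSMC1P1 took counts equal to 55.7% of its own, and the opposite-strand gene NRDE2 shares 75.8% of its annotated exon bases. With pseudogene counts added to the parent genes PSMC1 had a log2 fold change of -0.15, and 33 members were again called lower and 3 higher.

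The other base subunits hold the largest scaffolds and a ubiquitin receptor. PSMD4, which encodes the receptor, went from 99.4, 105 and 108 CPM to 72.3, 71.8 and 80.8 CPM (log2 fold change -0.47 ± 0.06, edgeR adjusted p = 1.47e-05). PSMD1, a scaffold gene, had 210, 203 and 214 CPM against 186, 181 and 155 CPM, with replicate 3 lowest. It fell by 16.5% (edgeR adjusted p = 0.00258). PSMD2, the other scaffold gene (chromosome 3, 184299241 to 184309050), was the most abundant member by CPM and went the other way. It had 559, 558 and 552 CPM in T47D and 631, 587 and 579 CPM in T47D-TR, without overlap (log2 fold change 0.11 ± 0.04, edgeR adjusted p = 0.0357). This call ended with DESeq2 (adjusted p = 0.0729), with library size alone (edgeR adjusted p = 0.157) and without any T47D library or T47D-TR replicate 1 (edgeR adjusted p = 0.09 to 0.167).

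Lid genes had the lowest median of the subcomplexes. Of 8 members 7 were called lower and 1 was not, with a median of -0.41, and their summed level went from 1348 ± 23.7 CPM to 1011 ± 13.7 CPM. PSMD11 (chromosome 17, 32444510 to 32483319), a lid scaffold gene whose level has been tied to proteasome assembly in stem cells, had 317, 319 and 315 CPM in T47D and 213, 196 and 191 CPM in T47D-TR. It fell by 36.9% (log2 fold change -0.66 ± 0.05, edgeR adjusted p = 1.12e-07). PSMD12 (chromosome 17, 67337916 to 67366577) went from 145, 143 and 151 CPM to 103, 99.6 and 110 CPM (log2 fold change -0.49 ± 0.05, edgeR adjusted p = 2.88e-06). PSMD3 (chromosome 17, 39980807 to 39997959), whose upstream sequence is printed above, went from 279, 279 and 277 CPM to 205, 201 and 190 CPM (log2 fold change -0.49 ± 0.03, edgeR adjusted p = 7.88e-07). In all 3 the groups lie far apart relative to the spread of 0.967 to 11.4 CPM (SD) within them.

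The remaining lid genes split by size of change. PSMD6 and PSMD8 fell by 0.43 and 0.40, while PSMD13 and PSMD7 fell by 0.19 and 0.18. PSMD14, the enzyme of the lid that cuts ubiquitin chains from the substrate, was not called. It had 88.6, 92.3 and 101 CPM against 94.2, 96.3 and 84.6 CPM, overlapping, with a log2 fold change of -0.04 ± 0.08 (edgeR adjusted p = 0.652).

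The alternative activators moved in different directions. PSME3 (chromosome 17, 42833397 to 42843760), the nuclear activator known for degradation that needs no ubiquitin, had 432, 421 and 429 CPM in T47D and 315, 300 and 260 CPM in T47D-TR (-0.55 ± 0.08 as log2 fold change, edgeR adjusted p = 4.95e-06). PSME4, which encodes a large single-chain activator linked to histone turnover, went from 155, 154 and 150 CPM to 176, 176 and 159 CPM (log2 fold change 0.16 ± 0.05, edgeR adjusted p = 0.0158). That call ended with library size alone (edgeR adjusted p = 0.0584) and without T47D replicate 2 or 3 or T47D-TR replicate 1 or 2 (edgeR adjusted p = 0.0527 to 0.0766). The counts of PSME4 were 35.8% ± 0.836 of those of PSME3 in T47D and 58.6% ± 2.60 in T47D-TR (SD, n = 3).

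PSME1 and PSME2 encode the partners of one interferon-inducible ring and lie 4403 bases apart on chromosome 14. PSME2 (chromosome 14, 24143365 to 24146610) had 60.9, 60.0 and 60.5 CPM in T47D and 37.9, 39.5 and 47.1 CPM in T47D-TR (-0.55 ± 0.10 as log2 fold change, edgeR adjusted p = 3.56e-05). PSME1 had 40.5, 42.0 and 39.8 CPM against 38.0, 37.7 and 44.6 CPM and was not called (log2 fold change -0.03 ± 0.08, edgeR adjusted p = 0.761). PSME2 counts were 150%, 143% and 152% of PSME1 counts in T47D and 99.9%, 105% and 106% in T47D-TR, so the pair came to near-equal counts in each T47D-TR library. This ratio was chosen after the values were seen and has no test. The opposite-strand gene RNF31 shares 216 exon bases with PSME2, and its own log2 fold change was -0.22. PSMF1, the inhibitor gene, fell from 88.1, 90.5 and 86.2 CPM to 70.1, 76.0 and 80.6 CPM (log2 fold change -0.22 ± 0.06, edgeR adjusted p = 0.00414).

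Assembly chaperones are needed to build the particle and are not part of the finished one. PSMG1 and PSMG2 encode the partners of one chaperone for the alpha ring. PSMG1 (chromosome 21, 39174769 to 39183514) had 81.8, 81.8 and 84.2 CPM in T47D and 58.1, 51.9 and 52.6 CPM in T47D-TR, and fell by 34.4% (log2 fold change -0.61 ± 0.05, edgeR adjusted p = 1.22e-06). PSMG2 (chromosome 18, 12658738 to 12725740) had 34.6, 34.5 and 39.4 CPM against 40.4, 42.2 and 41.7 CPM (log2 fold change 0.20 ± 0.07, edgeR adjusted p = 0.0217). The PSMG2 groups do not overlap, but DESeq2 did not call it (adjusted p = 0.0604), nor did the fit with library size alone (edgeR adjusted p = 0.0516), voom (limma adjusted p = 0.067) or the fits without T47D replicate 1 or 2 or T47D-TR replicate 2 (edgeR adjusted p = 0.0542 to 0.112). The opposite-strand genes CEP76 and SPIRE1 share 13.9% and 2.74% of the annotated exon bases of PSMG2. Their own log2 fold changes were 0.05 and 0.36. PSMG3 fell by 0.21 and its partner PSMG4 was not called, with 20.2, 17.4 and 20.2 CPM against 18.8, 16.8 and 20.5 CPM. The opposite-strand gene SLC22A23 shares 13.3% of the annotated exon bases of PSMG4, and its own log2 fold change was 1.14. Of the base chaperones PSMD9 fell by 0.45 and PSMD10, also known as the oncoprotein gankyrin, fell by 0.24. PSMD5 had a log2 fold change of 0.03 and was not called (edgeR adjusted p = 0.582).

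The members are spread over 17 chromosomes. Chromosome 17 held 7 members, all called lower, with a median of -0.49, while 32.5% of its 939 tested genes were called lower and their median was 0.0067. Chromosome 14 also held 7, of which 4 were lower with a median of -0.25, against 31.1% and -0.0052 for its 492 tested genes. Chromosome 1 held 4, all lower. On chromosome 18, where the higher member PSMG2 lies, 8.13% of 209 tested genes were lower and their median was 0.44. On chromosome 16, where PSMB10 lies, 44.7% of 675 were lower and their median was -0.18.

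Of 7 members that start within 1000 bases of an opposite-strand gene in the table, the pairs had like and unlike values. PSMA2 and its partner MRPL32, a mitochondrial ribosomal protein gene whose start is 23 bases away, had log2 fold changes of -0.21 and -0.19. PSMG2 and SPIRE1, which start 91 bases apart, had 0.20 and 0.36. PSMA1 and PDE3B, a phosphodiesterase gene 88 bases away, had -0.27 and -4.25. PDE3B had a mean of 4.20 CPM in T47D and 0.211 CPM in T47D-TR. These partners were named after their values were seen.

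Further factors that bind the proteasome moved in both directions. Of 15 listed, 7 were called lower, 4 higher and 4 not at all, with a median of -0.11. Over all tested genes 30.5% were called lower and 32.5% higher, so calls in both directions are not particular to these factors. The lowest was POMP, which encodes the maturation protein of the barrel, with 134, 144 and 142 CPM in T47D and 91.8, 93.4 and 94.7 CPM in T47D-TR (-0.58 ± 0.03 as log2 fold change, edgeR adjusted p = 3.92e-07). The highest was MIDN, the gene of midnolin, which carries proteins to the proteasome without ubiquitin, with 51.1, 49.9 and 48.8 CPM against 68.5, 75.5 and 66.1 CPM (log2 fold change 0.49 ± 0.06, edgeR adjusted p = 1.44e-05). Of 6 genes for ubiquitin shuttles 5 were lower and 1 was not called, with a median of -0.35. DDI2 had the largest called change at -0.76.

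VCP and DDI2, which act on NFE2L1, fell, and NFE2L1 itself was not called. VCP, the ATPase that extracts NFE2L1 from the membrane of the endoplasmic reticulum, had 389, 384 and 382 CPM in T47D and 224, 206 and 236 CPM in T47D-TR (-0.79 ± 0.06 as log2 fold change, edgeR adjusted p = 4.35e-08). DDI2, the protease that activates it, went from 36.5, 31.7 and 33.2 CPM to 21.7, 19.0 and 19.2 CPM (edgeR adjusted p = 3.94e-06). NFE2L1 itself had 293, 284 and 273 CPM against 262, 256 and 280 CPM (log2 fold change -0.09 ± 0.05, edgeR adjusted p = 0.103). It was called lower with library size alone (log2 fold change -0.13, edgeR adjusted p = 0.0273) and without T47D-TR replicate 3 (log2 fold change -0.13, edgeR adjusted p = 0.00344). Of the 10 genes listed for this axis 3 were lower and 4 higher, with a median of 0.04. These counts are near the shares over all tested genes, 30.5% lower and 32.5% higher. NFE2L2, its relative that answers oxidative stress, rose from 92.9, 95.3 and 99.9 CPM to 132, 143 and 128 CPM (log2 fold change 0.48 ± 0.06, edgeR adjusted p = 6.19e-06). MAFF, a small partner factor, rose the most, from 3.72, 2.76 and 3.11 CPM to 25.1, 31.3 and 10.9 CPM, with replicate 3 lowest. The other called genes of this list were NGLY1, lower at -0.46, and SEL1L and MAFG, higher at 0.28 and 0.16.

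Ubiquitin genes and VCP cofactors were mixed. Of 6 genes for ubiquitin and its activating enzymes 3 were lower and 1 higher. UBA1, the main activating enzyme, went from 348, 361 and 350 CPM to 430, 405 and 472 CPM (log2 fold change 0.30 ± 0.07, edgeR adjusted p = 0.000269). Of 10 VCP cofactors 4 were lower and 4 higher, from NSFL1C at -0.50 to UBXN1 at 0.38. With 30.5% of all tested genes called lower and 32.5% higher, mixed calls are not particular to these lists.

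The interferon axis controls the immunoproteasome. Of its 10 listed genes 5 were higher, 1 lower and 4 not called, with a median of 0.27, so that 6 of 10 were called where 63.0% of all tested genes were. IRF1, the factor that turns on PSMB9 after interferon, rose from 17.3, 17.1 and 17.5 CPM to 20.7, 24.1 and 21.0 CPM (log2 fold change 0.34 ± 0.07, edgeR adjusted p = 0.00263). IFNGR2, a receptor chain gene, rose by 0.75, and NLRC5, an activator of antigen presentation genes, fell by 0.39. Among 6 genes that handle peptides for antigen presentation, B2M rose from 390, 398 and 421 CPM to 679, 690 and 695 CPM. TAP2, a peptide transporter gene beside PSMB8, fell from 130, 123 and 122 CPM to 74.7, 73.9 and 80.4 CPM (log2 fold change -0.71 ± 0.05, edgeR adjusted p = 1.52e-07). TAP1, beside PSMB9, had 14.7, 13.0 and 13.2 CPM against 15.3, 12.8 and 13.2 CPM and was not called.

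**Figure D4:**
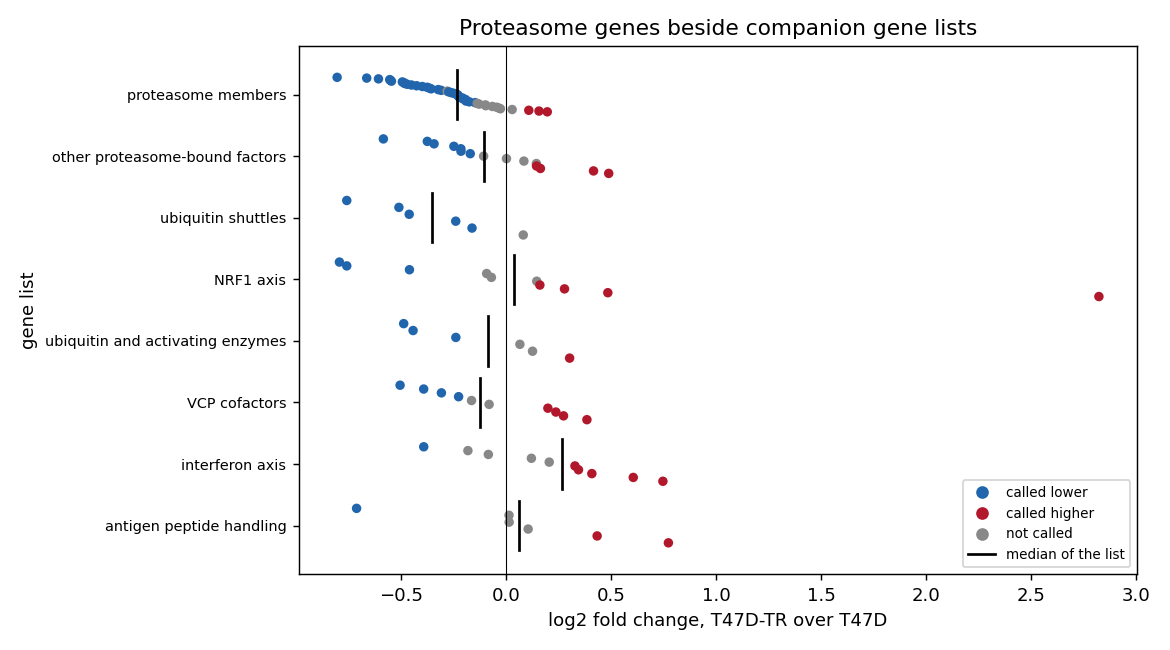
Log2 fold change of every tested gene in the proteasome family and in 7 companion lists, T47D-TR over T47D, as points coloured by the edgeR call, with a black bar at each list's median. The median is lowest for the ubiquitin shuttles at -0.35 and highest for the interferon axis at 0.27, with the proteasome members at -0.23.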

How the data were processed

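Poly(A) RNA was sequenced from 3 T47D and 3 T47D-TR libraries. The deposited table gives counts per gene and library under a name that announces FPKM, but the values are whole numbers with a different total in each library, so they were tested as counts, as the design allowed for. Reads were aligned with HISAT2 2.1.0 and compared with DESeq, per the submitters' processing notes. Not given in the sources used here were how reads were counted, with what annotation and whether by strand. The authors also deposited group means of scaled counts (a signal), a linear fold change (ratio), its log2 value, and a p-value with its adjusted form. In the authors' deposited table, members called at an adjusted p under 0.05 were 33 lower and 1 higher, and the 33 were those that edgeR called lower.

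Genes were kept by edgeR's filterByExpr (at least 10 counts in enough libraries and 15 in all), scaled by TMM and tested 2-sided with the quasi-likelihood test on the groups alone (edgeR 4.0.16, R 4.3.3). P-values were adjusted by Benjamini-Hochberg over all 15961 tested genes. SEs come from log2 CPM (prior count 2). The script was tested on simulated data. Ratios were compared by exact permutation. Alternatives were RLE scaling, library size alone, DESeq2 1.42.0, voom with quantile normalization (limma 3.58.1), no filter, a mean CPM of at least 5, a replicate block, each library left out, and, chosen after seeing the data, pseudogene counts added to their parents. Levels per kilobase used the union of exons of GENCODE v29 basic transcripts, which may not be the annotation of the counts. The members, the lists and the rule for named genes were chosen with earlier results of these data known. The rule names all members and, of each companion list, the called genes with the highest and the lowest fold change, plus POMP, NFE2L1, NFE2L2, IRF1, TAP1 and TAP2. Some genes that the rule names are not reported here.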

Additional observations from a re-analysis of the deposited data

How the results depend on the processing

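The number of members called lower, 33, ranged from 30 to 36 over 14 alternatives, and 29 of the 33 were called lower in all of them. PSMD7, PSMG3, PSMC3 and PSMD10 each lost the call in at least 1 fit that left out a library. Calls of higher members were less stable. Their number went from 3 to 0 with library size alone, to 1 with DESeq2 and to between 0 and 3 when a library was left out, and none of PSMD2, PSME4 and PSMG2 kept its call in all alternatives. The causes were not tested. The replicate numbers did not pair the libraries, with correlations of deviations of -0.0051, -0.021 and -0.014, and with a replicate block 34 members were lower and 3 higher, PSMA6 then being called lower (edgeR adjusted p = 0.0479). With voom and quantile normalization the log2 fold changes of the tested genes differed from the main fit by a median of -0.11. The members' median was then -0.2474, against -0.2329 in the main fit, and 36 members were called lower. More of all tested genes were called lower with this setting too, so the rise from 33 is not particular to the members. The share of counts held by the members was 0.701% in T47D and 0.599% in T47D-TR without mitochondrially encoded genes. The log2 ratio of PSMB9 to PSMB6 was 0.0523 without T47D-TR replicate 3, and lay between -0.1905 and 0.0523 over the libraries left out. Some genes that were not called changed sign. Over the libraries left out, PSMD5 ranged from -0.0021 to 0.0476, PSME1 from -0.1067 to 0.0171, PSMG4 from -0.1178 to 0.0295, PSMD14 from -0.0805 to 0.0205 and TAP1 from -0.0687 to 0.067. With library size alone PSMD5 had -0.0083 and TAP1 -0.0225, and TAP1 had -0.1404 with quantile normalization. PSMB9 had the lowest depth of the members, with 19 to 33 counts per library.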
